A study of Mus musculus with 6 samples.

Results

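The transcription factors that assign endothelial cells (ECs) to arteries, veins and lymphatic vessels were examined in RNA-Seq libraries of coronary ECs from E15.5 mouse hearts. They are the SoxF genes *Sox7*, *Sox17* and *Sox18*, the nuclear receptor genes *Nr2f1* and *Nr2f2*, and *Dach1*, *Mecom*, *Tox2* and *Hhex*, chosen by gene symbol. These are 9 of the 55416 genes in the count table. The ControlΔEC libraries (n = 3) came from Pdgfb-CreERT2/+; Wt1+/+; R26-mTmG/+ embryos and the Wt1KOΔEC libraries (n = 3) from Pdgfb-CreERT2/+; Wt1-LoxP/LoxP; R26-mTmG/+ embryos, so that the controls carried the same Cre and reporter with unfloxed *Wt1* alleles. Pregnant dams received tamoxifen by gavage (75 mg/kg, E11.5 to E13.5), embryos of both genotypes came from the same litters, and mGFP+ cells were sorted from digested ventricles. Cre is driven from *Pdgfb* and recombination switches on membrane GFP, so the sort selected for recombined cells. Transcripts of other cell types were still counted, as given below. The labels number the libraries as biological replicates, but how many embryos were combined in each is not given in the sources used here.

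ECs of a growing plexus are at first uncommitted and take on arterial or venous identity as vessels mature. SoxF proteins bind DNA through an HMG box and act with Notch signalling in the arterial programme, with SOX18 also acting upstream of *Prox1* in lymphatic ECs. NR2F2 (COUP-TFII) is a nuclear receptor known for maintaining venous identity by repressing the Notch pathway, and it works with PROX1 in lymphatic ECs; NR2F1 is its close paralogue. DACH1 promotes coronary artery growth, MECOM is a PRDM-family zinc finger protein enriched in arterial ECs, TOX2 is an HMG-box protein that the study lists among arterial markers, and HHEX is a homeodomain protein of vascular and haematopoietic progenitors.

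The libraries held between 26037324 and 44779020 expected counts, at which 3 counts, taken as the floor of detection, correspond to 0.0608 to 0.119 CPM (counts scaled to the library total times its TMM factor). The floor covers counting error only. The targeted gene, *Wt1*, was at 109.6 to 149 CPM in ControlΔEC libraries and at 14 to 21.3 CPM in Wt1KOΔEC libraries (log2 fold change -2.91, standard error 0.22). All 7 endothelial markers checked were tested, with a summed level of 4758 to 6024 CPM in ControlΔEC and 5038 to 5888 CPM in Wt1KOΔEC, whereas 6 cardiomyocyte markers summed to 83.3 to 185.4 CPM over all libraries. Sums of markers chosen for other cell types differed between genotypes. The study counts some of these genes as EC markers, *Col1a1*, *Col3a1* and *Dcn* as venous and *Rgs5* and *Kcnj8* as arterial. Single markers differed to unlike degrees. Fibroblast markers ran from a log2 fold change of -0.16 (*Postn*) and 0.04 (*Lum*) to 1.34 (*Col1a1*), with 6 of 7 above 0. Mural markers ran from -0.04 (*Acta2*) to -2.50 (*Rgs5*), with all 6 below 0. Summed markers were higher in every Wt1KOΔEC library for fibroblasts (585 to 869 CPM in ControlΔEC, 1158 to 1368 CPM in Wt1KOΔEC), lymphatic ECs (76.3 to 143 and 248 to 395 CPM) and endocardium (262 to 368 and 380 to 443 CPM), and lower in every one for mural cells (178 to 366 and 142 to 155 CPM). Epicardial (up to 17.9 and 17.3 to 49.3 CPM), macrophage (213.5 to 651 and 131 to 215 CPM) and erythroid sums (3567 to 7470 and 2414 to 4315 CPM) overlapped. No marker was at 0 in all 6 libraries. Mitochondrially encoded genes took 5.21% to 6.61% of ControlΔEC counts and 1.68% to 4.57% of Wt1KOΔEC counts.

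All 9 genes had at least 10 counts in at least 2 libraries and entered the test, with 16296 genes in all. In edgeR's quasi-likelihood test 0 of the 9 were called, a call being an adjusted p under 0.05 together with a log2 fold change beyond 0.58 in either direction; among all genes tested 12 were called (0.0736%), 8 higher in Wt1KOΔEC (0.0491%) and 4 lower (0.0245%). At an unadjusted p under 0.05, 2 of the 9 passed, *Tox2* (lower in Wt1KOΔEC) and *Nr2f2* (higher), against a background of 13.1% of all genes tested. DESeq2 with the same filter called 1 of the 9, *Tox2*, against 3.85% of all genes (2.12% lower), and limma-voom called 0. For the same pair no library of one genotype reached the range of the other, as was the case for 19.3% of all genes (8.97% lower and 10.3% higher in Wt1KOΔEC). The median log2 fold change of the 9 was -0.02, and that of all genes tested was -0.03. In bulk samples, fewer cells that express a gene and less RNA per cell cannot be told apart.

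**Figure D1:**
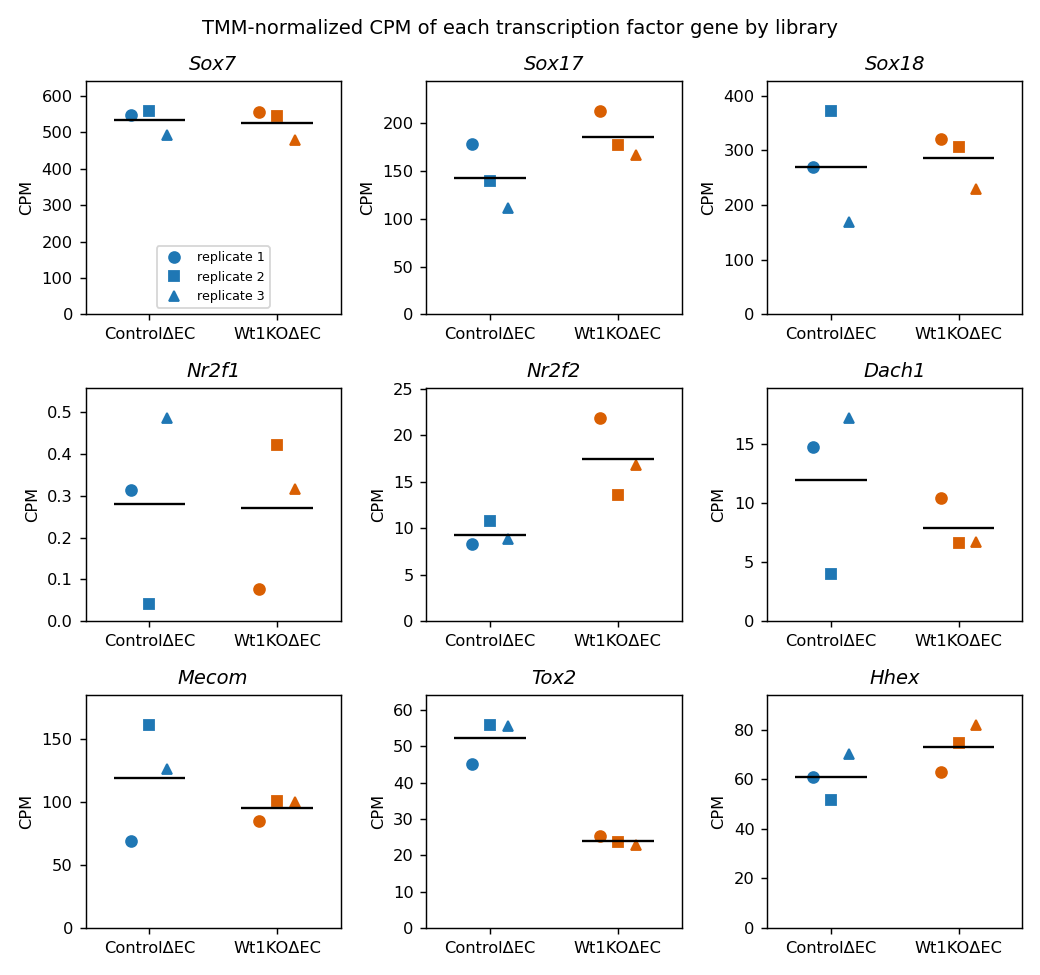
TMM-normalized CPM (y axes, from 0) of the 9 transcription factor genes in each ControlΔEC (blue) and Wt1KOΔEC (orange) library; marker shapes are replicate numbers and black lines are means of 3 libraries. The genotypes separate for *Tox2* and *Nr2f2*, while the values of the other 7 genes overlap.

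**Figure D2:**
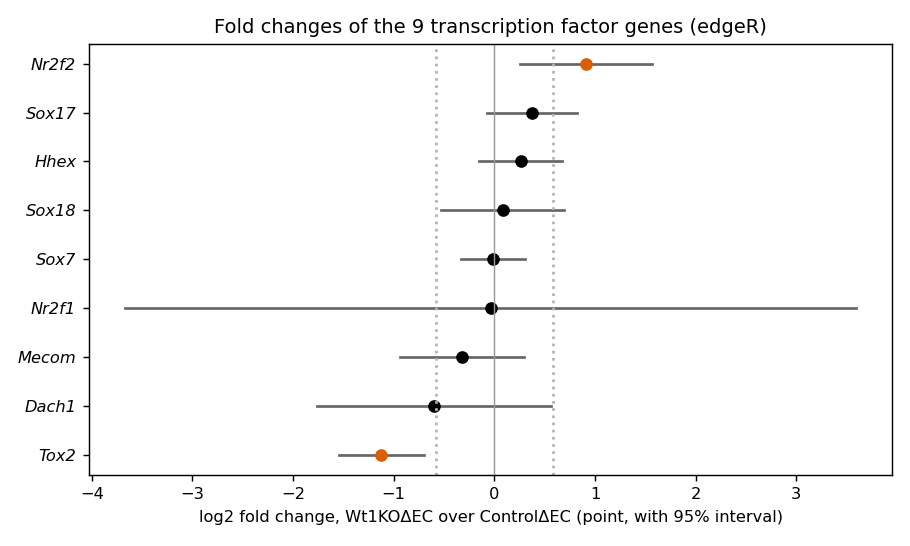
Log2 fold change of Wt1KOΔEC over ControlΔEC from edgeR (x axis; points) with its 95% interval (bars); dotted lines mark the limit of 0.58 in either direction and orange points are the genes without overlap between genotypes. The intervals of *Tox2* and *Nr2f2* lie off 0, and that of *Nr2f1* runs from -3.67 to 3.59.

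The proximal promoter of *Tox2* is shown because this gene had the smallest p of the 9. The window runs from 250 bases before to 50 bases from the start of the canonical transcript, in GRCm39. Capitals mark a SOX core, searched as AACAAT on either strand.
Tox2 (chr2:163044782-163045081, plus strand): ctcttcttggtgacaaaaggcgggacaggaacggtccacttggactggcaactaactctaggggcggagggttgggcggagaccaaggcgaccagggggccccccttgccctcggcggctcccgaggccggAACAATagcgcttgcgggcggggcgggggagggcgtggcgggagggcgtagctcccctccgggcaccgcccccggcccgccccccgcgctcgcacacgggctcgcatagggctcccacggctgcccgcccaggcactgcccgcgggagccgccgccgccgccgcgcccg

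The *Tox2* window had a GC content of 75.7%, with 36 CpG dinucleotides. It held 1 SOX core, beginning 119 bases before the start site, as did 10.6% of 21770 protein-coding promoters of the same length. A WT1 zinc finger site, searched as GNGTGGGNG on either strand and also read by EGR proteins, was not among its letters and was present in 15.4% of promoters. The direct repeat read by NR2F receptors, AGGTCA given again after 1 spacer base, was not among them either and was present in 0.0459%. The letters describe the window and were not tested against the fold changes.

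*Tox2* (ENSMUSG00000074607.12; chr2:163045021-163166191, plus strand, on the same chromosome as *Wt1*) is counted by the study among arterial genes changed in these same libraries. Its level was 45.1, 55.9 and 55.5 CPM in ControlΔEC replicates 1, 2 and 3 and 25.3, 23.7 and 22.8 CPM in Wt1KOΔEC replicates 1, 2 and 3. Every Wt1KOΔEC library was thus below every ControlΔEC library, and the spread within each genotype was small (52.2 ± 6.12 and 23.9 ± 1.23 CPM, mean ± SD, n = 3). The log2 fold change was -1.12 (standard error 0.19, 95% interval -1.55 to -0.70), a Wt1KOΔEC level of 0.459 of the control level, and *Tox2* ranked 26 of 16296 genes by p. The adjusted p was 0.108 in edgeR, short of the threshold, and 3.0e-05 in DESeq2. The adjusted p of the other processing alternatives ranged from 8.0e-07 to 0.185. Leaving out any 1 library kept the log2 fold change between -1.22 and -1.07. A two-sided exact permutation test gave p = 0.1, the smallest that 3 libraries against 3 allow. At an unadjusted p under 0.05 in edgeR, 3 of 6 mural and 4 of 6 macrophage markers were lower in Wt1KOΔEC and 0 higher. Of all genes 7.12% were lower. In ControlΔEC replicates 1, 2 and 3 mural markers summed to 366, 178 and 364 CPM and macrophage markers to 323, 651 and 213.5 CPM. ControlΔEC replicate 2, the highest control for *Tox2*, was thus the lowest control in the mural sum and the highest in the macrophage sum. The part of either cell type in the *Tox2* result was not tested.

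*Tox2* was the only member of its family with an unadjusted p under 0.05 in edgeR. *Tox4*, the most abundant TOX gene by CPM, was at 104 ± 23.6 CPM in ControlΔEC and 97.9 ± 9.86 CPM in Wt1KOΔEC, with a log2 fold change of -0.09 (standard error 0.19, adjusted p = 0.915 in edgeR). *Tox* was at 5.22 ± 2.64 and 7.84 ± 1.2 CPM, a log2 fold change of 0.59 (standard error 0.50), and *Tox3* at 1.44 ± 0.858 and 1.48 ± 0.658 CPM. Whether *Tox2* differed from these paralogues was not tested.

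*Nr2f2* (ENSMUSG00000030551.15; chr7:70001692-70016519, minus strand) pointed the other way. It was at 8.29, 10.7 and 8.85 CPM in ControlΔEC replicates 1, 2 and 3 and at 21.8, 13.6 and 16.8 CPM in Wt1KOΔEC replicates 1, 2 and 3. Every Wt1KOΔEC library lay above every ControlΔEC library, with the highest value in Wt1KOΔEC replicate 1. The means were 9.28 ± 1.26 and 17.4 ± 4.15 CPM, a 1.87-fold higher level (log2 fold change 0.91, standard error 0.29, 95% interval 0.25 to 1.56). This did not pass the threshold in edgeR (adjusted p = 0.258) or in DESeq2 (adjusted p = 0.118), and over the processing alternatives the adjusted p ran from 0.0542, with DESeq2 on all genes, to 0.400. Without Wt1KOΔEC replicate 1 the log2 fold change was 0.71 (adjusted p = 0.619), and without Wt1KOΔEC replicate 2 it was 1.06. From these same libraries the study reports *Nr2f2*, *Sox17* and *Dach1* as unaffected and *Mecom* as without significant change.

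*Nr2f2* is also expressed in mesenchymal and lymphatic cells. At an unadjusted p under 0.05, 4 of 7 fibroblast, 2 of 6 epicardial and 3 of 6 lymphatic markers were higher in Wt1KOΔEC and 0 were lower, against 5.96% and 7.12% of all genes. In Wt1KOΔEC replicates 1, 2 and 3 fibroblast markers summed to 1368, 1158 and 1186 CPM, epicardial markers to 49.3, 17.3 and 35.6 CPM, and lymphatic markers to 395, 323 and 248 CPM. In ControlΔEC replicates 1, 2 and 3 fibroblast markers summed to 869, 585 and 762 CPM and lymphatic markers to 143, 76.3 and 114 CPM. Wt1KOΔEC replicate 1, the highest library for *Nr2f2*, was highest in all 3 sums, whereas ControlΔEC replicate 2, the highest control for *Nr2f2*, was the lowest control in all 3; their part in the *Nr2f2* result was not tested. The antisense RNA *B130024G19Rik* shares 1225 of the 9403 exonic bases of *Nr2f2* and was at 1.36 CPM in ControlΔEC and 2.75 CPM in Wt1KOΔEC. Since the counting is not stated to use strand, reads that lie within the shared bases cannot be assigned to 1 of the pair.

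Of the relatives of *Nr2f2*, *Nr2f1* (chr13:78337092-78348578, minus strand) was close to the floor. It had 14, 2 and 14 counts in ControlΔEC replicates 1, 2 and 3 and 3, 15 and 8 counts in Wt1KOΔEC replicates 1, 2 and 3, or at most 0.486 CPM. The low and high libraries occurred in both genotypes, and the 95% interval of its log2 fold change (-0.04) spanned -3.67 to 3.59, so a difference in either direction was not detectable with these counts. Its overlapping antisense RNA *A830082K12Rik* was at 1.06 and 1.53 CPM. *Nr2f6*, another COUP-TF-related receptor, was at 20.7, 18.3 and 12.7 CPM in ControlΔEC and 26.1, 26.4 and 27.7 CPM in Wt1KOΔEC, again without overlap (log2 fold change 0.64, standard error 0.25, adjusted p = 0.326 in edgeR). For *Nr2c1*, a testicular receptor gene, the log2 fold change was -0.22, with a standard error of 0.43. Of the 5 other Nr2 genes, 3 were tested and 0 called; 1 was higher and 0 lower at an unadjusted p under 0.05, which 5.96% of all genes were in that direction and 7.12% in the other.

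The SoxF genes were the most abundant of the 9 per exonic length. *Sox7* (chr14:64181006-64188352, plus strand) was at 547.5, 558 and 494 CPM in ControlΔEC replicates 1, 2 and 3 and at 556, 546.5 and 479.6 CPM in Wt1KOΔEC replicates 1, 2 and 3. It varied least among the 9 in ControlΔEC (coefficient of variation 6.39%), and its log2 fold change was -0.02 with a 95% interval of -0.33 to 0.30. *Sox17* (chr1:4561151-4567784, minus strand), which drives arterial specification, was at 178, 139.7 and 111 CPM in ControlΔEC and at 212, 178 and 166 CPM in Wt1KOΔEC. Its genotypes overlapped in their ranges, with ControlΔEC replicate 1 at the level of Wt1KOΔEC replicate 2, and the log2 fold change was 0.37 (95% interval -0.08 to 0.83, adjusted p = 0.479 in edgeR). It was 0.56 without ControlΔEC replicate 1, 0.22 without ControlΔEC replicate 3 and 0.23 when scaled by library size only. That scaling moved the median of all genes from -0.03 to -0.18.

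*Sox18* (chr2:181311629-181313438, minus strand) spread more widely, at 269, 371 and 169 CPM in ControlΔEC replicates 1, 2 and 3 and at 321, 306 and 229 CPM in Wt1KOΔEC replicates 1, 2 and 3. The highest and the lowest libraries were both controls. Its log2 fold change was 0.08 (95% interval -0.53 to 0.69) and its sign was not determined, since it was 0.38 without ControlΔEC replicate 2 and -0.16 without ControlΔEC replicate 3. Scaling by library size only gave -0.08, and offsets for gene length and GC content gave -0.14; the exons of *Sox18* were the shortest (1.62 kb) and the most GC-rich (60.9%) of the 9.

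Summed per kb of exonic length, the SoxF genes reached 346, 404.5 and 258 CPM per kb in ControlΔEC replicates 1, 2 and 3 and 387, 369 and 301 CPM per kb in Wt1KOΔEC replicates 1, 2 and 3. Within that sum *Sox17* made up 9.64%, 6.48% and 8.10% in ControlΔEC and 10.3%, 9.04% and 10.4% in Wt1KOΔEC, and *Sox18* 40.4% to 56.4% in ControlΔEC and 46.8% to 51.1% in Wt1KOΔEC. Replicate 3 of each genotype had the lowest SoxF sum, and both were the shallowest library of their genotype. *Nr2f2* amounted to 0.255, 0.281 and 0.365 per 100 of the SoxF sum in ControlΔEC and 0.599, 0.391 and 0.595 in Wt1KOΔEC.

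Among the 16 other Sox genes in the table, 8 were tested and 0 were called by edgeR. At an unadjusted p under 0.05, 2 were higher and 1 lower, against 5.96% and 7.12% of all genes. DESeq2 with the same filter called 0. Without a filter it called 1, *Sox9*, in a fit that called 347 of 16238 genes higher. *Sox11*, a SoxC gene of progenitor cells, was at 29.7, 30.0 and 56.1 CPM in ControlΔEC and 22.6, 27.9 and 18.3 CPM in Wt1KOΔEC (log2 fold change -0.75, standard error 0.30). *Sox4*, of the same subfamily, was at 23.4, 27.8 and 17.1 CPM in ControlΔEC and 30.4, 34.0 and 36.7 CPM in Wt1KOΔEC (log2 fold change 0.56, standard error 0.24). *Sox9*, a regulator of mesenchymal and cartilage cells, was at 4.10 ± 1.65 and 10.4 ± 1.78 CPM (log2 fold change 1.34, standard error 0.41). The genotypes did not overlap for these 3 genes, as for 8.97% of all genes in the lower and 10.3% in the higher direction. *Sox13*, a SoxD gene, was at 46.5 ± 17.1 and 41.0 ± 6.76 CPM, with overlap.

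*Dach1* (chr14:98024289-98407201, minus strand) was at 14.8, 4.01 and 17.2 CPM in ControlΔEC replicates 1, 2 and 3 and at 10.4, 6.63 and 6.69 CPM in Wt1KOΔEC replicates 1, 2 and 3. The lowest library was a control, so the genotypes overlapped, and the log2 fold change of -0.60 had a 95% interval of -1.76 to 0.56 (adjusted p = 0.714 in edgeR). ControlΔEC replicate 2 carried this uncertainty: without it the log2 fold change was -1.01 (adjusted p = 0.254), and without ControlΔEC replicate 3 it was -0.24 (adjusted p = 0.897). limma-voom gave -0.23. Of 11 other genes of the retinal determination network to which DACH proteins belong, 4 were tested and 0 passed an unadjusted p under 0.05, against 13.1% of all genes. *Eya3* was at 26.3 ± 6.84 and 26.6 ± 4.97 CPM, and the paralogue *Dach2* had no count in any library.

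*Mecom* (chr3:30005439-30602157, minus strand) was at 69.2, 161 and 127 CPM in ControlΔEC replicates 1, 2 and 3 and at 84.9, 100.7 and 99.9 CPM in Wt1KOΔEC replicates 1, 2 and 3. All Wt1KOΔEC values lay inside the control range. The log2 fold change was -0.32 (95% interval -0.94 to 0.30, adjusted p = 0.711 in edgeR) and moved to -0.04 without ControlΔEC replicate 2 and to -0.60 without ControlΔEC replicate 1. ControlΔEC replicate 2 was thus the highest for *Mecom* and *Sox18* and the lowest for *Dach1*; the same library had the highest sum of macrophage markers (651 CPM, against 323 and 213.5 CPM in the other controls), whose part was not tested. Of 16 Prdm and Zfpm genes in the table, which encode zinc finger regulators related to MECOM or acting beside NR2F2 in the heart, 11 were tested, 0 were called and 1 was lower at an unadjusted p under 0.05, a share close to the 7.12% of all genes. It was *Prdm4*, at 44.5, 36.0 and 25.1 CPM in ControlΔEC and 23.1, 17.4 and 18.1 CPM in Wt1KOΔEC (log2 fold change -0.85, standard error 0.26, adjusted p = 0.244 in edgeR). *Prdm16*, the closest paralogue of *Mecom*, was at 8.48 ± 2.86 and 5.11 ± 2.25 CPM (log2 fold change -0.73, standard error 0.48). *Zfpm2* was at 10.8 ± 4.96 and 17.5 ± 0.130 CPM, *Prdm1* had a log2 fold change of -0.06 and *Prdm10* one of 0.33.

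*Hhex* (chr19:37423258-37429179, plus strand) was at 61.0, 51.5 and 70.3 CPM in ControlΔEC replicates 1, 2 and 3 and at 62.8, 74.6 and 81.9 CPM in Wt1KOΔEC replicates 1, 2 and 3. The ranges overlapped, and the log2 fold change was 0.26 (95% interval -0.15 to 0.67, adjusted p = 0.620 in edgeR). It was 0.16 without ControlΔEC replicate 2, 0.17 without Wt1KOΔEC replicate 3 and 0.12 when scaled by library size only. HHEX represses transcription with Groucho/TLE corepressors. Of 7 Tle genes 6 were tested, 0 were called and 2 were higher at an unadjusted p under 0.05, against 5.96% of all genes. *Tle3* was at 35.1 ± 7.53 and 49.0 ± 4.89 CPM (log2 fold change 0.48, standard error 0.21) and *Tle5*, a short family member that lacks the repressor's WD domain, at 19.6 ± 2.43 and 28.1 ± 4.17 CPM (0.52, standard error 0.23). *Tle4* and *Tle1* had log2 fold changes of -0.14 and -0.15.

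Per kb of exonic length, the order in ControlΔEC was *Sox18* (166 ± 62.1 CPM per kb, n = 3), *Sox7* (143 ± 9.16), *Sox17* (26.8 ± 6.26), *Tox2* (14.3 ± 1.68), *Hhex* (12.1 ± 1.86), *Mecom* (9.51 ± 3.71), *Dach1* (1.64 ± 0.959), *Nr2f2* (0.987 ± 0.134) and *Nr2f1* (0.0483 ± 0.0387 CPM per kb). The ranges over libraries of *Sox18* and *Sox7*, of *Tox2* and *Hhex*, of *Hhex* and *Mecom* and of *Dach1* and *Nr2f2* overlapped, so those neighbours could not be ordered. In Wt1KOΔEC *Tox2* stood sixth, at 6.56 ± 0.338 CPM per kb, behind *Hhex* (14.5 ± 1.91) and *Mecom* (7.61 ± 0.708), although its range overlapped that of *Mecom*, and *Nr2f2* (1.85 ± 0.441) stood ahead of *Dach1* (1.08 ± 0.297) with no overlap of their libraries. Among 54749 genes with a known length, *Sox18* and *Sox7* ranked 134 and 154 by mean level per kb in ControlΔEC, while *Nr2f2* ranked 10100.

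**Figure D3:**
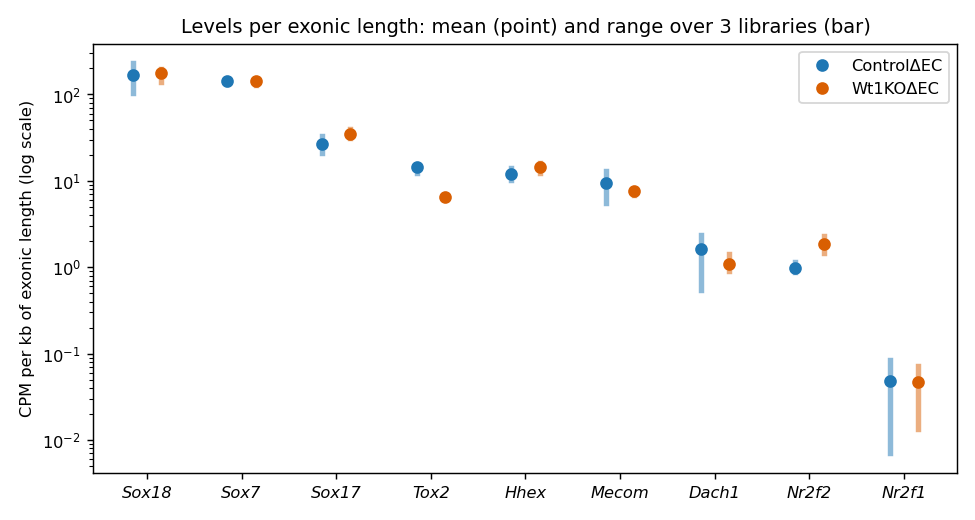
Mean level in CPM per kb of exonic length (y axis, log scale; points) and the range over 3 libraries (bars) for each gene, in the order of ControlΔEC means. *Sox18* and *Sox7* lie at about the same level, and *Tox2* and *Nr2f2* are the genes whose bars do not overlap between genotypes.

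The arterial, venous and lymphatic genes that these factors are known to control or accompany were read from the same fit. Of 18 arterial genes tested, 0 were called by edgeR. At an unadjusted p under 0.05, 4 were lower, against 7.12% of all genes, and 2 higher, against 5.96%. The log2 fold change was below 0 for 13 and above 0 for 5, when 48% of all genes tested lay above 0. The median was -0.35, against -0.03 for all genes tested. Scaled by library size only it was -0.51, against -0.18 for all genes. DESeq2 with the same filter called 2 lower, against 2.12% of all genes, and 1 higher, against 1.74%. edgeR without ControlΔEC replicate 3 called 1, *Notch4*, in a fit that called 11 of 15675 genes higher and 26 lower. *Notch4*, an arterial Notch receptor gene, was at 325, 428 and 103 CPM in ControlΔEC and 142, 133 and 130 CPM in Wt1KOΔEC. The library left out thus lay below every Wt1KOΔEC library, and with all 6 libraries DESeq2 did not call *Notch4* (adjusted p = 0.345). The study names *Notch4*, *Epas1* and *Jag2* as lower and *Igfbp3* as higher in these same libraries. It lists *Dll4*, *Hey1*, *Efnb2*, *Gja4*, *Gja5*, *Cxcr4*, *Cxcl12*, *Nrp1* and *Unc5b* as without significant change. These genes are thus not independent evidence of the direction of the list. *Jag2*, a Notch ligand, was at 66.2, 59.5 and 45.1 CPM in ControlΔEC and 35.1, 34.2 and 29.1 CPM in Wt1KOΔEC (log2 fold change -0.79, standard error 0.20). *Epas1*, a hypoxia-inducible factor gene, was at 530 ± 65.7 and 336 ± 62.8 CPM (-0.66, standard error 0.18), and *Cxcl12*, the chemokine linked to DACH1 in coronary arteries, at 124 ± 10.0 and 83.7 ± 16.7 CPM (-0.57, standard error 0.18). *Igfbp3*, an insulin-like growth factor binding protein gene, went the other way, at 1277, 1274 and 724 CPM in ControlΔEC and 2264, 2208 and 2137 CPM in Wt1KOΔEC (1.01, standard error 0.21). *Jag2*, *Epas1*, *Cxcl12* and *Igfbp3* were named for the smallest p in the list. The genotypes did not overlap for these 4 genes, as for 8.97% of all genes in the lower and 10.3% in the higher direction. Their adjusted p-values in edgeR were between 0.134 and 0.258.

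Of the 9 venous genes, 0 were called by edgeR or by DESeq2. At an unadjusted p under 0.05 in edgeR 1 was higher and 0 lower, against 5.96% and 7.12% of all genes. The median was -0.16 (0.06 without Wt1KOΔEC replicate 1). The higher one was *Emcn*, a sialomucin of veins and capillaries, at 386, 289.6 and 355 CPM in ControlΔEC and 501, 434 and 431 CPM in Wt1KOΔEC (log2 fold change 0.41, standard error 0.16, adjusted p = 0.332 in edgeR). *Ephb4*, the venous ephrin receptor, was at 212 ± 36.5 and 281 ± 44.6 CPM (0.41, standard error 0.19), *Dab2* had a log2 fold change of 0.25 and *Aqp1* one of -0.31. From these same libraries the study already reports all genes of this list but *Vwf* and *Flt4* as without significant change, so their counts are not independent of it. It also names *Col1a1*, *Col3a1* and *Dcn*, read here as fibroblast markers, among venous markers that were higher. DESeq2 called these 3 here, and edgeR called *Col1a1* (adjusted p = 0.0441).

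Among 9 genes described as SoxF targets, edgeR called 0. At an unadjusted p under 0.05, 2 were higher and 0 lower, against 5.96% and 7.12% of all genes. DESeq2 with the same filter called 2, *Vcam1* and *Prox1*, both higher, against 1.74% of all genes. Without a count filter edgeR called *Vcam1*, in a fit that called 125 of 24536 genes higher. The median of the 9 was -0.13, but -0.29 when scaled by library size only, -0.27 without Wt1KOΔEC replicate 2 and -0.01 without Wt1KOΔEC replicate 3. Library size scaling also moved the median of all genes, from -0.03 to -0.18. *Efnb2*, the arterial ephrin ligand, was at 65.9 ± 2.49 and 52.3 ± 2.65 CPM (log2 fold change -0.33, standard error 0.15) and *Kdr*, the main VEGF receptor gene, at 1136 ± 93.4 and 931 ± 66.4 CPM (-0.29, standard error 0.14). Both were without overlap, as were 8.97% of all genes in that direction. *Vcam1*, a leukocyte adhesion molecule, was at 51.9 ± 6.66 and 105 ± 7.46 CPM (1.02, standard error 0.16, adjusted p = 0.102 in edgeR). *Prox1*, the lymphatic master regulator that SOX18 and NR2F2 act on, was at 19.4, 10.8 and 27.1 CPM in ControlΔEC and 34.5, 41.6 and 45.04 CPM in Wt1KOΔEC (1.08, standard error 0.32, adjusted p = 0.235 in edgeR).

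All 6 lymphatic genes had log2 fold changes above 0, from 0.90 to 1.80 with a median of 1.12, when 48.0% of all genes tested lay above 0. None was called by edgeR, and 3 were higher at an unadjusted p under 0.05, against 5.96% of all genes. DESeq2 called 3 higher, against 1.74%. Without a count filter edgeR called 2, *Ccl21a* and *Mmrn1*, in a fit that called 125 of 24536 genes higher. *Ccl21a*, a chemokine of lymphatic vessels, was at 70.3, 40.4 and 37.1 CPM in ControlΔEC and 193, 195 and 125 CPM in Wt1KOΔEC (log2 fold change 1.80, standard error 0.28, adjusted p = 0.0967 in edgeR). *Mmrn1* was at 25.97, 12.5 and 25.8 CPM in ControlΔEC and 107, 37.4 and 58.3 CPM in Wt1KOΔEC (1.66, standard error 0.41), and *Lyve1* at 14.01 ± 5.99 and 27.4 ± 17.4 CPM (0.97, standard error 0.57). *Sox18* and *Nr2f2*, whose proteins act on *Prox1*, were not called (adjusted p = 0.951 and 0.258 in edgeR). Any relation between them and the lymphatic genes was not tested.

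**Figure D4:**
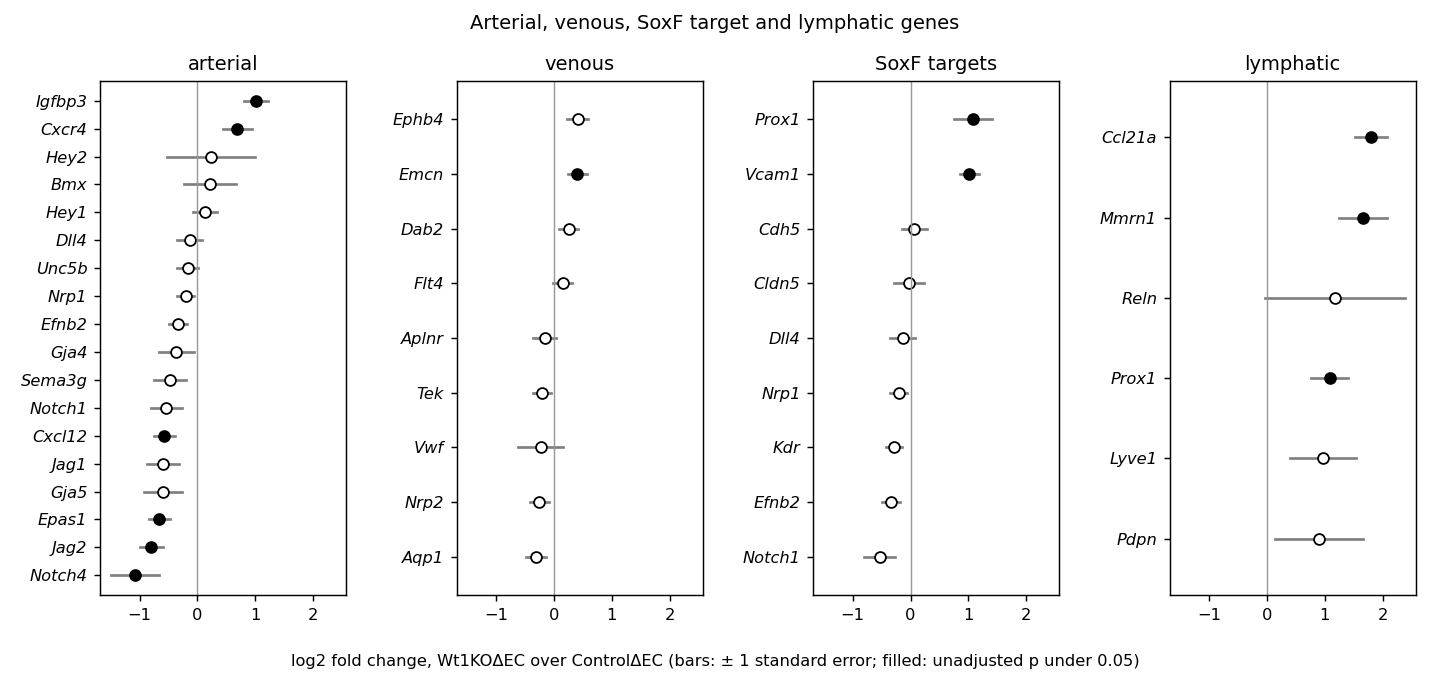
Log2 fold change of Wt1KOΔEC over ControlΔEC (x axis; points, bars ± 1 standard error) for the arterial, venous, SoxF target and lymphatic genes; filled points have an unadjusted p under 0.05 in edgeR. Arterial genes lie on both sides of 0 with 13 of 18 below it, and all 6 lymphatic genes lie above it.

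The pattern of each gene over the 6 libraries was set beside those of 8471 other genes with a mean of at least 10 CPM, by the root mean square difference of log2 CPM centred on each gene's mean. Nearest to *Tox2* were *Malt1* (0.066) and *Ube2q1* (0.082), with log2 fold changes of -1.19 and -0.99. Nearest to *Nr2f2* were *Gins1* (0.132) and *C230062I16Rik* (0.140), nearest to *Sox17* *Tmem109* (0.051) and *Cyc1* (0.060), and nearest to *Sox7* *Ndufa10* (0.040) and *Fam222b* (0.044). *Sox18* was closest to *Zfp319* (0.074) and *Egln2* (0.082), *Mecom* to *Lrch4* (0.063) and *Afg3l2* (0.087), and *Hhex* to *Tars* (0.045) and *Serinc5* (0.058). The genes share the same 6 libraries, and the likeness is a description only. *Dach1* and *Nr2f1* had means under 10 CPM and were not searched.

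**Figure D5:**
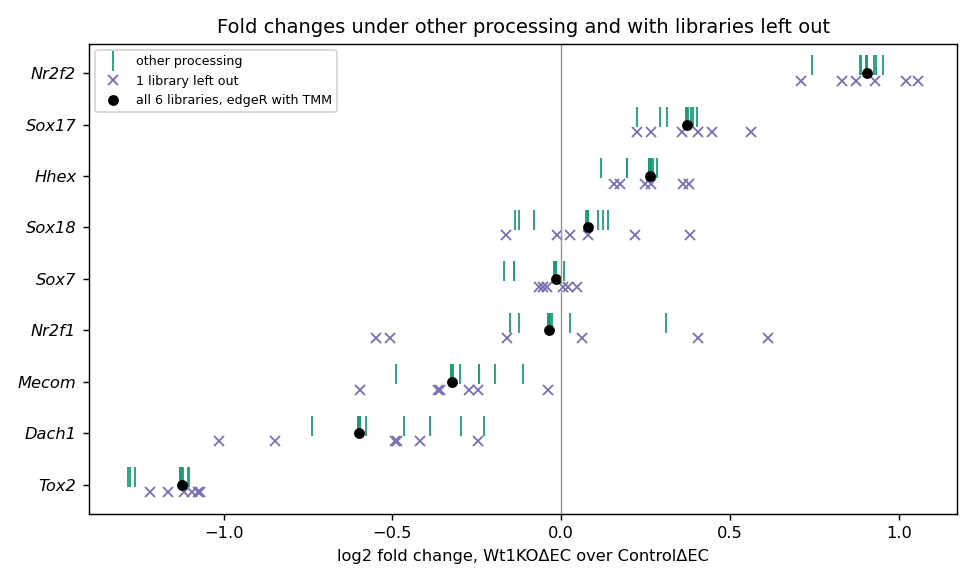
Log2 fold change (x axis) of each gene with all 6 libraries in edgeR with TMM (black points), under 12 other ways of processing (green bars) and with 1 library left out (purple crosses). *Tox2*, *Dach1* and *Mecom* stayed below 0 and *Nr2f2*, *Sox17* and *Hhex* above it throughout, and *Sox7*, *Sox18* and *Nr2f1* lay on both sides.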

How the data were processed

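The deposited table holds RSEM expected counts per gene, given by the authors as whole numbers without normalization. Libraries were made with SMART-seq2 and Nextera XT, and reads were aligned with STAR 2.7.8a and quantified with RSEM 1.3.0 on GENCODE vM27; the paper names GRCm39 and the submitters' processing notes GRCm38. Groups and replicate numbers were taken from the sample labels. The library identifiers begin with AT for all ControlΔEC libraries and with AU for all Wt1KOΔEC libraries. What these prefixes mark is not given in the sources used here, and it cannot be told apart from genotype.

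Counts were analysed in R 4.3.3. Genes that reached 10 counts in 2 or more libraries were compared by edgeR 4.0.16 (TMM, quasi-likelihood F test, Benjamini-Hochberg adjustment over all 16296 genes tested); standard errors are the absolute fold change (log2) divided by the root of F. DESeq2 1.42.0, the tool the paper names, and limma 3.58.1 (voom) were alternatives. Positions, exonic lengths and the promoter come from GENCODE vM39 on GRCm39; other promoters are not reported here; lengths and GC contents covered 16238 of the genes tested. Named genes are the 9 transcription factor genes, *Wt1*, subfamily relatives, up to 4 genes per list with the smallest p and a mean of at least 10 CPM, and the 2 nearest patterns per gene; subfamily relatives include the Sox family at any level, and *Notch4* and overlapping RNAs were named after their values were seen. The genes and lists were chosen with earlier results of these data known. DESeq2 without a filter and the fit without mitochondrial genes and *Rn18s* were added after the data were seen. The fits were checked on simulated counts. Intervals rest on 3 libraries per genotype. The p-values of edgeR, DESeq2 and limma-voom set the genotype difference against the spread between libraries, which each tool estimates by sharing information over genes.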

Additional observations from a re-analysis of the deposited data

How the results depend on the processing

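Of 162 refits of the 9 genes, 145 kept direction and side of the threshold. *Tox2* passed it with DESeq2 (adjusted p = 3.0e-05), DESeq2 on all genes (8.0e-07) and edgeR without a count filter (0.00822), which made the count of the 9 called 1 in each, against 2 at an unadjusted p; the cause was not tested. Genes called higher (8) and lower (4) became 270 and 329 with DESeq2, 347 and 412 with DESeq2 on all genes, 125 and 171 without a count filter, 680 and 972 at an unadjusted p, and 3 and 2 with the replicate block, alone or with length and GC offsets. Those offsets alone and library size scaling each left 5 higher, and limma-voom left 1 lower. The fit without mitochondrial genes and *Rn18s* gave 8 and 4. With single libraries left out, 1 (without ControlΔEC replicate 1, Wt1KOΔEC replicate 1 or Wt1KOΔEC replicate 3) to 11 (without ControlΔEC replicate 2 or 3) were higher, and 1 (without Wt1KOΔEC replicate 2 or 3) to 26 (without ControlΔEC replicate 3) lower; without Wt1KOΔEC replicate 2, 2 were higher, and without Wt1KOΔEC replicate 1, 2 were lower, against 15 without ControlΔEC replicate 2.

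The log2 fold change of *Sox7* reversed to 0.008 with upper-quartile scaling and ranged from -0.066 to 0.048 with single libraries left out. That of *Sox18* reversed to -0.081 by library size, -0.14 with length and GC offsets and -0.125 with these and the replicate block, and ranged from -0.16 to 0.38. That of *Nr2f1* reversed to 0.31 in limma-voom and 0.026 with the replicate block, and ranged from -0.55 to 0.61. Library size scaling moved the median of all genes to -0.18. Correlations of deviations were 0.058, 0.054 and 0.006 for same-numbered libraries and -0.055 to 0.006 for differently numbered ones. Whether a shared number marks a shared litter is not given in the sources used here. The replicate block, under which *Tox2* was at -1.12 (adjusted p = 0.145) and *Nr2f2* at 0.89 (adjusted p = 0.352), changed no call of the 9. By CPM without length, *Sox7* came before *Sox18* and *Mecom* before *Hhex* and *Tox2*.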
